A study of Homo sapiens with 4 samples.

Results

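The genes examined here are the enzymes of cholesterol synthesis, the regulators of the transcription factor SREBP2, and proteins that take up, move or esterify cholesterol. The 30 genes were taken from a fixed list of symbols and matched by Ensembl identifier, and all 30 were found among the 62893 genes of the count tables. Of these, 29 had enough reads to compare. The list held 0.438% and 0.439% of all gene-assigned reads in the scramble tables and 0.446% and 0.45% in the shFTO tables.

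Transcripts were sequenced in Hep-G2, a cell line derived from a human hepatoma, that carried either a scramble shRNA (SHC002) or an shRNA against FTO (TRCN0000246247), all at passage 21. FTO is a demethylase of N6-methyladenosine, a common base modification of RNA. Each group has 2 count tables, called run 1 and run 2, and each group rests on 1 shRNA. The labels do not say whether the runs came from separate cultures or whether the cells were a clone or a pool.

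Cells make cholesterol from acetyl-CoA through mevalonate, isoprenoid diphosphates, squalene and lanosterol, and the liver is a main site of this synthesis. When sterols in the endoplasmic reticulum are low, SCAP escorts the precursor of SREBP2 to the Golgi, where it is cut, and the released factor activates genes of synthesis and uptake. INSIG proteins hold SCAP back when sterols are plentiful. Cholesterol that arrives with lipoproteins leaves the lysosome through NPC2 and NPC1, and surplus is esterified by SOAT enzymes.

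The tables held 20047409 to 20706611 gene-assigned reads. Within a group the runs did not differ detectably beyond sampling noise (chi-square per degree of freedom 1.019 for scramble and 1.013 for shFTO, against 118.5 or more between groups), so the runs of a group were pooled and counted as 1 sample. With 1 sample in each group, the comparison lacks a replicate check. FTO itself was at 31.4 and 28.5 CPM (read counts scaled to a common library size) in scramble and 5.42 and 5.83 in shFTO. Of 9 hepatocyte markers 8 were at least 1.5-fold lower in shFTO, and their summed level was 35451 CPM in scramble and 13646 in shFTO. The leukocyte markers PTPRC and CD3E were at 0 in all 4 tables, and the summed level of the 5 leukocyte markers, nearly all of it LYZ, was 3005 and 234 CPM. The 7 fibroblast markers summed to 23.4 and 6.85 CPM, with COL3A1, DCN and LUM at 0, and the members with enough reads went opposite ways: PDGFRB was at 23.3 and 3.62 CPM and COL1A1 at 0.131 and 3.11. The 5 endothelial markers summed to 1.20 and 2.17 CPM, with PECAM1 and KDR at 0. The part of these shifts in the results below was not tested. In such bulk samples of a cell line, fewer cells that express a gene and less of its RNA per cell cannot be told apart.

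Sequence upstream of the start site was on hand for 25 of the 30 genes. The 250 bases before each start, from RefSeq on GRCh38.p14, were searched on both strands for 4 motifs, each counted on its own, so that matches may overlap. CCAAT, the box bound by NF-Y, a factor known to act together with SREBPs, was present in 19 of the 25 (76.0%), against 33.0% of 27305 such stretches of all genes and 35.2% of the 10255 that belong to genes compared here. GGGCGG, the GC box bound by Sp1, was present in 22 (88.0%), against 42.3% of all and 67.5% of compared genes. CACGTG, the E-box, was present in 3 (12.0%, against 6.49% and 8.95%). TCACNCCAC, which resembles the sterol regulatory element, was present in 1, SREBF2, as TCACCCCAC from -133 to -125 on the plus strand, against 0.875% of all stretches and 0.839% of those of compared genes. These are matches of letters in a short window, and no binding was measured.

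Stretches from 4 genes are shown as examples of the responses described below, not as their full range. They are HMGCS1, with the largest increase, MVD, with almost none, MSMO1, with a larger decrease than most, and LBR, which lacks the box. SOAT2, with the largest decrease, had no sequence on hand. Capitals mark CCAAT or its reverse complement ATTGG. Each stretch runs 5′ to 3′ toward the gene, and bases that GENCODE v29 places in an exon were left out.
HMGCS1, chr5:43313513-43313662, minus strand: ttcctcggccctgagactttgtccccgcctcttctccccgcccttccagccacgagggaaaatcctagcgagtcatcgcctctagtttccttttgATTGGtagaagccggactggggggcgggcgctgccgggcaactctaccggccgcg
MVD, chr16:88663162-88663297, minus strand: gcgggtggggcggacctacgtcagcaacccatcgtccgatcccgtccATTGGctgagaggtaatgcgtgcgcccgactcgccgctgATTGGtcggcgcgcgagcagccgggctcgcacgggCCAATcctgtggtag
MSMO1, chr4:165327419-165327622, plus strand: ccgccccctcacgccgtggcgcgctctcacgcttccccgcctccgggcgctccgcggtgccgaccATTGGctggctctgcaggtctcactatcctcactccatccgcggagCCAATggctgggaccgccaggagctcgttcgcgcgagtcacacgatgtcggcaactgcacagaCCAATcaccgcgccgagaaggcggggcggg
LBR, chr1:225428926-225429071, minus strand: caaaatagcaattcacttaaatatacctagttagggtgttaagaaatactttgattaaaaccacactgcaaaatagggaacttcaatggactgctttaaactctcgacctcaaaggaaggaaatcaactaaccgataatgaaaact
MVD and MSMO1 each show 3 boxes, HMGCS1 shows 1 and LBR none. The 18 compared genes with a box in the 250 bases had log2 ratios from -0.66 to 0.53 with a median of -0.06. The 6 without it ran from -0.70 to 0.23 with a median of -0.07, so the ranges overlapped widely.

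The list as a whole moved little. Of the 29 compared genes 4 were at least 1.5-fold lower in shFTO (SOAT2, NPC1, SC5D and MSMO1) and 0 at least 1.5-fold higher, where 13.4% and 11.4% of all 13767 compared genes were. The share of lower members is near that background. Only SOAT2 was at least 2-fold lower and 0 members were at least 2-fold higher, where 6.19% and 5.18% of all genes were. Past a log2 ratio of 0.32 in size there were 10 lower and 3 higher members, against 24.0% and 22.8% of all genes. The runs of the groups did not overlap for 26 of the 29 members, and for 81.6% of all genes. The median log2 ratio, shFTO over scramble, was -0.12 over the members and 0.01 over all genes, and the members' 25th and 75th percentiles were -0.39 and 0.15, against -0.30 and 0.29 over all genes. In edgeR's quasi-likelihood test, adjusted after Benjamini and Hochberg over all genes, 8 members were called higher, 17 lower and 4 did not pass, against 33.2% higher and 33.4% lower over all genes. That test compares these libraries and not the conditions, because its spread comes from runs that differ by sampling noise alone.

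Directions of small changes depended on the scaling. Ratios here use TMM scaling (a trimmed mean of log ratios between libraries). With plain library size the log2 ratio of all genes shifts up by 0.17, so only genes that were lower with TMM could turn. Under that scaling 13 members were lower and 16 higher by sign, and the edgeR calls were 13 lower and 13 higher. Of all 13767 compared genes, 8987 were then above 0, and edgeR called 3042 lower and 6709 higher. The 8 members whose sign turned were PMVK, MVD, IDI1, SQLE, NSDHL, HSD17B7, STARD4 and SCARB1, all within 0.13 of 0 on the log2 scale. Under either scaling 13 members were lower and 8 higher. Upper quartile scaling turned MVD, HSD17B7 and STARD4. With plain library size only SOAT2 remained at least 1.5-fold lower, and HMGCS1 and NPC1L1 were at least 1.5-fold higher, with log2 ratios of 0.70 and 0.59.

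**Figure D1:**
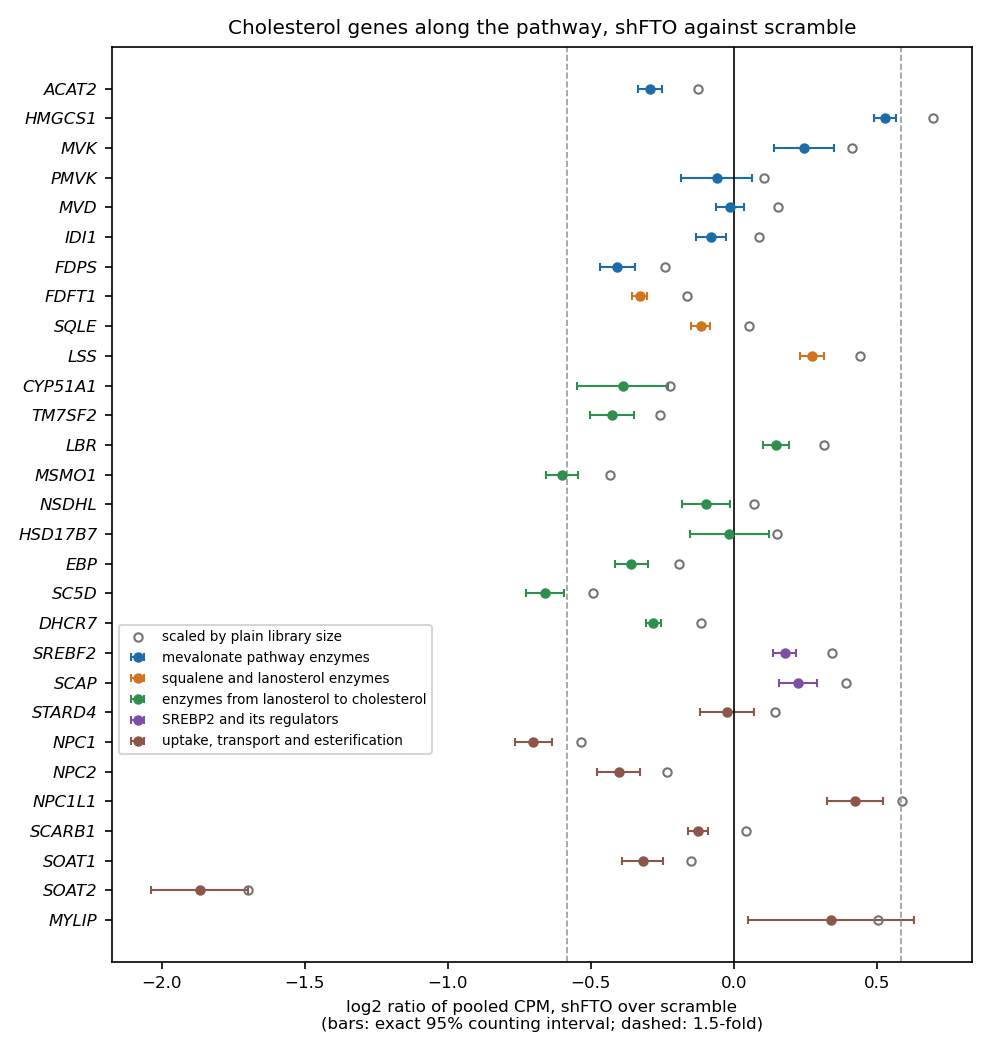
Each filled point is a gene's log2 ratio of pooled CPM, shFTO over scramble, with its exact 95% counting interval, in pathway order from top to bottom and coloured by role; open circles show the ratio with plain library size and dashed lines mark 1.5-fold. SOAT2 stands far to the left at -1.87, and the other 28 genes lie between -0.70 and 0.53.

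The mevalonate steps went both ways, with HMGCS1 at one end and FDPS at the other. HMGCS1 (ENSG00000112972, chromosome 5), which makes HMG-CoA from acetoacetyl-CoA, was at 219 and 216 CPM in the scramble runs and at 315 and 314 in the shFTO runs. The shFTO runs were both above the scramble runs, and the pooled level was 1.44-fold higher (95% counting interval 1.40 to 1.48). ACAT2, the cytosolic thiolase that precedes it, was at 246 and 253 CPM and then at 197 and 210, or 1.23-fold lower (1.19 to 1.26). The first pair of steps in the list thus differed in direction. In GENCODE v29 opposite-strand models of TCP1, SOD2 and SOD2-OT1 overlap 9.2%, 26.5% and 33.9% of the exon length of ACAT2. Of these only the TCP1 model has its identifier among the genes counted here, with 45007 reads over the 4 tables. Counting under other identifiers was not checked. Without a stated strand setting reads in these overlaps cannot be told apart.

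MVK, mevalonate kinase, was 1.19-fold higher (1.10 to 1.28), at 32.8 and 34.2 CPM in scramble and 39.6 and 39.9 in shFTO. MMAB, on the opposite strand, overlaps 4.7% of the exon length of MVK and held 3102 reads over the 4 tables. The next enzymes, PMVK (phosphomevalonate kinase), MVD (the decarboxylase that forms isopentenyl diphosphate) and IDI1 (its isomerase), were 1.04-fold, 1.01-fold and 1.06-fold lower, differences that are among those that turned with the scaling. FDPS, which builds farnesyl diphosphate, the branch point toward sterols and prenyl groups, was at 121 and 127 CPM and then at 95.1 and 91.6, or 1.33-fold lower (1.27 to 1.38). An antisense gene, RUSC1-AS1, overlaps 18.6% of its exon length and held 160 reads over the 4 tables. Summed over these 7 genes the level was 962 CPM in scramble and 978 in shFTO.

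Squalene synthesis and cyclization showed a similar split. FDFT1, squalene synthase, the member with the highest CPM, was at 672 and 658 CPM in scramble and 532 and 527 in shFTO, or 1.26-fold lower (1.23 to 1.28). SQLE, the squalene epoxidase and a rate-limiting step, was at 353 and 359 CPM and then at 322 and 335, or 1.08-fold lower (1.06 to 1.11), and its sign turned with plain library size. LSS, which closes the ring system to lanosterol, was at 209 and 211 CPM and then at 255 and 253, or 1.21-fold higher (1.17 to 1.24). For each of the 3 genes the runs of the groups did not overlap, as was so for 81.6% of all compared genes.

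From lanosterol to cholesterol, 8 of 9 enzymes had ratios below 0 and LBR was the exception. With plain library size 6 did. Of all 13767 compared genes, 6753 were below 0 with TMM, and 8987 were above 0 with plain library size. The median log2 ratio of this segment was -0.36, or -0.19 with plain library size. SC5D (ENSG00000109929, chromosome 11), the lathosterol desaturase, was at 119 and 117 CPM in scramble and 74.0 and 75.2 in shFTO, or 1.58-fold lower (1.51 to 1.65). MSMO1 (ENSG00000052802, chromosome 4), the sterol methyl oxidase, was at 158 and 163 CPM and then at 101 and 111, or 1.52-fold lower (1.46 to 1.58). For both, the runs of the groups did not overlap, as was so for 81.6% of all compared genes. MSMO1 sits at the 1.5-fold line: its log2 ratio was -0.60 with all runs, -0.58 without scramble run 2 and -0.54 without shFTO run 1. The latter values are under 1.5-fold.

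The other enzymes of this segment changed less. DHCR7, the reductase that completes one branch of the pathway, was at 588 and 600 CPM in scramble and 490 and 488 in shFTO, or 1.22-fold lower (1.19 to 1.24). EBP, the sterol isomerase, was 1.28-fold lower (1.23 to 1.34), at 134 and 127 CPM against 102 and 102. CYP51A1, the lanosterol demethylase, was 1.31-fold lower (1.17 to 1.46), at 18.7 and 17.3 CPM against 12.8 and 14.7. A gene model on the same strand covers 79.4% of the CYP51A1 exons in GENCODE v29. The identifier of that model is not among the genes counted here, and how reads there were assigned is not given in the sources used here. NSDHL, which acts in removing methyl groups from the sterol ring, was 1.07-fold lower (1.01 to 1.13), and HSD17B7, its partner reductase, 1.01-fold lower with runs that overlapped. HSD17B7 has 2 pseudogenes that together held 333 reads, so its reads may be split.

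TM7SF2 and LBR encode sterol reductases that act on the same double bond, and LBR is also the lamin B receptor of the nuclear envelope. TM7SF2 was at 78.3 and 74.8 CPM in scramble and 55.7 and 58.3 in shFTO, or 1.34-fold lower (1.27 to 1.42). LBR was at 190 and 187 CPM and then at 209 and 208, or 1.11-fold higher (1.07 to 1.14). Per kilobase of exon, TM7SF2 made up 38.9% and 38.2% of the pair's reads in scramble and 29.2% and 30.2% in shFTO. This share does not depend on the library scaling, and the runs of the groups do not overlap.

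**Figure D2:**
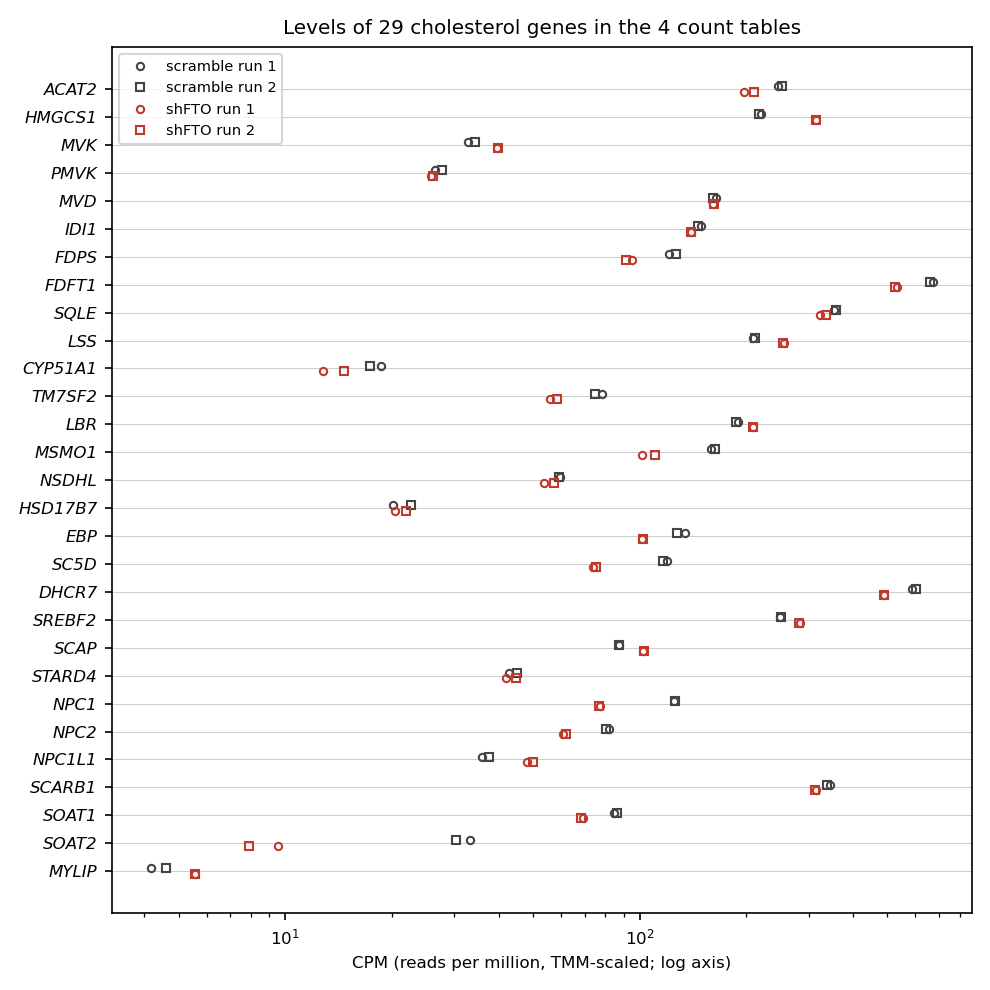
Points show the CPM of each of the 29 compared genes on a log axis, in scramble (dark) and shFTO (red), with circles for run 1 and squares for run 2. Runs of a group lie close together for most genes, and SOAT2 shows the widest gap between groups.

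The transcripts of SREBP2 and its escort were slightly higher. SREBF2, which encodes SREBP2, was at 248 and 251 CPM in scramble and 283 and 282 in shFTO, or 1.13-fold higher (1.10 to 1.16). SCAP was at 87.6 and 87.5 CPM and then at 102 and 103, or 1.17-fold higher (1.12 to 1.22). Plain library size moves every ratio upward, so it could not have turned either gene and is no check on them. Transcript levels do not show how much SREBP2 was processed. INSIG1 was listed at 0 reads in all 4 tables and is not compared. ATL3 and BTBD6, genes that most cells use and chosen here once their zeros had been noticed, were also listed at 0, so the zero of INSIG1 is not read as absence.

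Esterification showed the largest difference of the list. SOAT2 (ENSG00000167780, chromosome 12), the cholesterol acyltransferase of hepatocytes and enterocytes, held 626 and 587 reads in scramble and 204 and 173 in shFTO. These correspond to 33.1 and 30.4 CPM against 9.52 and 7.88. Pooled, the level was 3.65-fold lower (3.25 to 4.11). On the log2 scale that is -1.87, and 1.91% of all compared genes had a lower ratio. SOAT1, its counterpart in most other cell types, was at 84.6 and 86.4 CPM and then at 69.0 and 68.2, a log2 ratio of -0.32 (-0.39 to -0.25). Per kilobase of exon SOAT2 made up 57.3% and 54.7% of the pair in scramble and 32.1% and 28.4% in shFTO. The order of the pair changed on that measure only, which rests on merged exon lengths of 7005 bases for SOAT1 and 2044 for SOAT2. In CPM SOAT1 was above SOAT2 in every run.

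Among transport genes the pair of lysosomal export was lower, NPC1 by more than 1.5-fold and NPC2 by less. NPC1 (ENSG00000141458, chromosome 18), the membrane protein that passes cholesterol out of the lysosome, was at 125 and 126 CPM in scramble and 77.5 and 76.5 in shFTO, or 1.63-fold lower (1.55 to 1.70). RMC1, on the opposite strand, overlaps 6.0% of its exon length. NPC2, the soluble lysosomal protein that hands cholesterol to NPC1, was at 82.1 and 80.1 CPM and then at 60.8 and 61.9, a log2 ratio of -0.40 (-0.48 to -0.33). Both were lower with plain library size as well, NPC1 by a log2 ratio of -0.53. STARD4, a cytosolic sterol carrier, was at 42.8 and 45.2 CPM against 41.8 and 44.7, with runs that overlapped.

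NPC1L1, a relative of NPC1 at the cell surface that takes up free cholesterol in intestine and liver, went the other way. It was at 35.8 and 37.5 CPM in scramble and 48.0 and 50.1 in shFTO, a log2 ratio of 0.42 (0.32 to 0.52). Per kilobase of exon NPC1L1 made up 35.6% and 36.5% of the NPC1L1 and NPC1 pair in scramble and 54.4% and 55.8% in shFTO. These shares rest on merged exon lengths of 5252 bases for NPC1L1 and 10102 for NPC1. In CPM NPC1 was above NPC1L1 in every run. SCARB1, the receptor for high-density lipoprotein, was 1.09-fold lower (1.06 to 1.12), at 344 and 339 CPM against 314 and 312, and its sign turned with plain library size. MYLIP, a ubiquitin ligase that marks lipoprotein receptors for degradation, had the lowest level of the compared members, with 79 and 89 reads in scramble and 119 and 122 in shFTO. It was 1.26-fold higher, with a wide counting interval of 1.03 to 1.55.

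**Figure D3:**
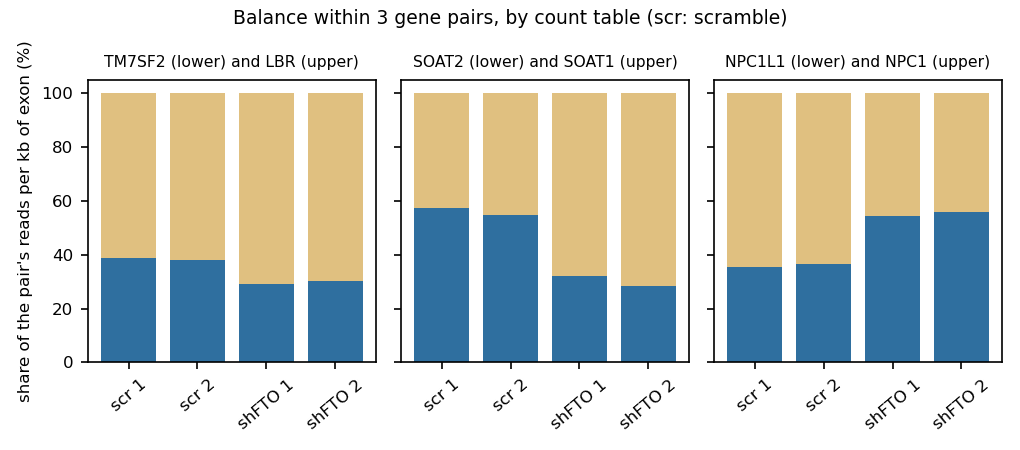
Bars give, for each of the 4 tables, how the reads per kilobase of exon of a gene pair were divided (in percent, both parts adding to the whole); blue is the gene named first. The blue share is smaller in the shFTO tables for TM7SF2 (29.2% and 30.2%) and SOAT2 (32.1% and 28.4%) and larger for NPC1L1 (54.4% and 55.8%).

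Levels per kilobase of exon ranked DHCR7 first in scramble, at 143 CPM per kilobase, followed by FDFT1 at 128 and SQLE at 82.7. The same 3 genes led in shFTO, at 118, 102 and 76.3. HMGCS1 was at 46.3 in scramble, behind ACAT2 (58.0), MSMO1 (55.7) and EBP (54.2), and at 66.9 in shFTO, ahead of ACAT2 (47.3), MSMO1 (36.7) and EBP (42.3). At the low end in scramble, with the shFTO level given after it, were MYLIP (1.45 and 1.83), HSD17B7 (4.48 and 4.43), CYP51A1 (5.02 and 3.83) and MVK (5.17 and 6.13). SOAT2 was at 15.5 in scramble and 4.25 in shFTO, where it was below HSD17B7 and MVK. These levels rest on merged exon lengths of GENCODE v29, and isoforms shorter than that are underestimated.

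The other genes of the pathway were taken from 4 related lists. As background, 11.4% of all 13767 compared genes passed the 1.5-fold line upward and 13.4% downward. None of the 4 lists exceeded either share. Of 22 genes that process SREBP or degrade sterol enzymes, all 22 compared, 1 was at least 1.5-fold higher and 2 lower (median log2 ratio -0.02). INSIG2, the second INSIG protein, was at 302 and 305 CPM in scramble and 123 and 120 in shFTO, or 2.50-fold lower (2.42 to 2.58). SYVN1, a ubiquitin ligase of the endoplasmic reticulum, was 1.75-fold lower (1.64 to 1.86). SREBF1, which encodes the SREBP that acts mainly on fatty acid genes, was 1.53-fold higher (1.46 to 1.61), at 70.6 and 74.9 CPM against 112 and 111.

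Of 19 genes of the isoprenoid branch outside sterols, 0 were at least 1.5-fold higher and 2 lower (median -0.09). These were COQ3, a methyltransferase of ubiquinone synthesis, 1.60-fold lower (1.39 to 1.84), and RABGGTA, a subunit of the transferase that prenylates RAB proteins, 1.55-fold lower (1.43 to 1.68). Of 15 genes of oxysterol sensing and sterol efflux 9 were compared and 0 passed 1.5-fold in either direction (median -0.06). Both medians lie below 0 with TMM and above 0 with plain library size (0.07 and 0.11), as does that of the SREBP processing list (0.15). The median over all genes was 0.01 with TMM and 0.18 with plain library size.

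Of 24 genes of receptor uptake, lysosome and intracellular sterol transport, 21 were compared, 2 were at least 1.5-fold higher and 2 lower (median -0.02, or 0.15 with plain library size). CES1, a carboxylesterase of hepatocytes, was at 123 and 123 CPM in scramble and 458 and 443 in shFTO, or 3.66-fold higher (3.55 to 3.78), with reads that may be shared with a close pseudogene copy. VLDLR, a lipoprotein receptor, was 1.84-fold higher (1.60 to 2.13) from a low level of 7.40 and 7.92 CPM. GRAMD1A, which moves cholesterol from the plasma membrane to the endoplasmic reticulum, was 2.13-fold lower (2.01 to 2.26). LIPA, the lysosomal acid lipase that frees cholesterol from its esters upstream of NPC2 and NPC1, was at 131 and 132 CPM in scramble and 77.0 and 77.2 in shFTO, or 1.71-fold lower (1.63 to 1.78). The lysosomal membrane proteins of the same list, chosen here after their values were seen, were within 1.5-fold, with SCARB2 1.29-fold higher (1.23 to 1.35), LAMP1 1.03-fold higher (1.01 to 1.06) and LAMP2 1.11-fold lower (1.07 to 1.14).

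**Figure D4:**
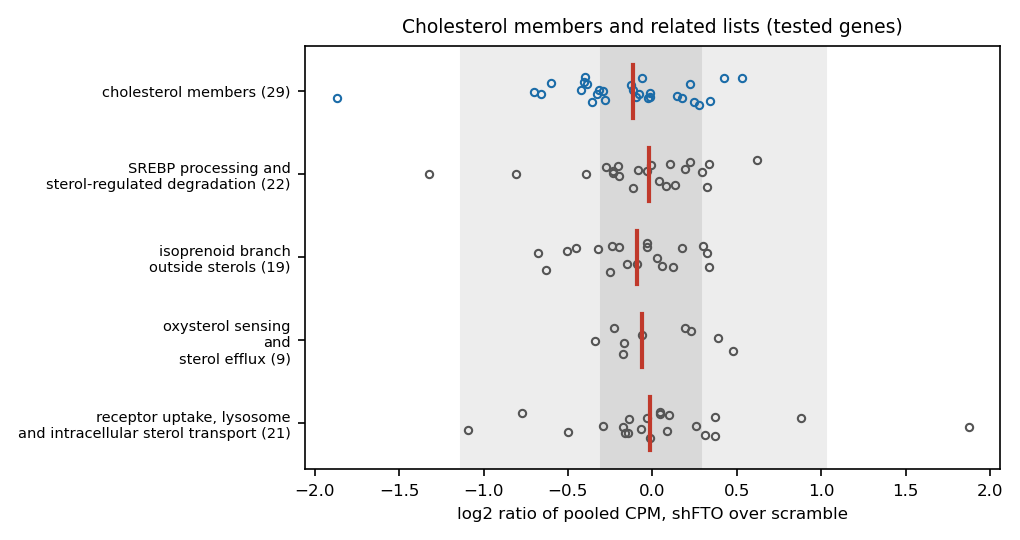
Points are log2 ratios of pooled CPM, shFTO over scramble, of compared genes in the cholesterol list and the 4 related lists, with list medians as red bars; the dark and light bands span the 25th to 75th and the 5th to 95th percentiles of all 13767 compared genes. The medians lie between -0.12 and -0.02, and SOAT2, INSIG2 and CES1 lie outside the light band.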

How the data were processed

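The values deposited by the authors are raw read counts per Ensembl gene, without normalization. They used build hg19 with HTSeq 0.6.0 and TopHat2 2.1.1, per the submitters' processing notes; the annotation release and strand setting are not given in the sources used here. Symbols came from reference name tables, and exon lengths and overlaps from GENCODE v29 (GRCh38), used for no gene coordinates. Members, gene lists and pairs were chosen with earlier results of these data known. Runs of a group were pooled. Ratios of TMM-scaled CPM carry exact 95% Clopper-Pearson intervals, which cover counting error only. A change of at least 1.5-fold was called. Genes compared passed filterByExpr. edgeR 4.0.16 (R 4.3.3; 2 residual degrees of freedom, adjusted p under 0.05) was tested on simulated data. Named genes were all members, FTO, and in each related list up to 3 genes each way at 1.5-fold with a mean of at least 1 CPM; others are marked. Alternatives were other scalings, filters and fold thresholds, DESeq2 1.42.0, limma-voom (limma 3.58.1), a replicate block and leaving out each run.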

Additional observations from a re-analysis of the deposited data

How the results depend on the processing

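With plain library size the members at least 1.5-fold higher numbered 2 and those lower 1. The members' median log2 ratio was 0.052 in place of -0.12, and that of all genes 0.18 in place of 0.01. The members' median thus stayed below that of all genes under both scalings. With plain library size edgeR called 13 members higher and 13 lower. Over all genes it then called 6709 higher and 3042 lower, against 4576 and 4594 with TMM. A lower threshold, a log2 ratio of 0.32, gave 3 higher and 10 lower members, and one of 2-fold gave 0 and 1. Leaving out each run gave 0 higher and 3 to 4 lower members, medians of -0.15 to -0.09, and 7 to 8 higher and 15 to 17 lower edgeR calls. The replicate number as a block left 8 higher and 17 lower calls. Deviations of same-numbered runs were uncorrelated (r = 0.00164 across genes). Because only counting noise was seen from run to run, this would be so with or without pairing. Whether the numbers pair the runs could therefore not be tested. The cause of the differences between settings was not tested. DESeq2 size factors, upper quartile scaling, other filters, DESeq2 and limma-voom kept each of these counts within 1.5 times, while upper quartile scaling moved the median to -0.07. No error between cultures can be had from these tables, and counting intervals were widest for MYLIP, SOAT2 and CYP51A1.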
